A study of Mus musculus with 12 samples.

Results

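The Myc network was followed across whole kidneys of newborn mice as 8 genes: Myc and Mycn, their obligate partner Max, the Max-binding repressors Mxd1, Mxd4, Mxi1 and Mnt, and Mga. These were the rows of the count files whose gene symbol equals one of those names, 8 of the 24062 gene symbols listed. All 8 passed the filter on low counts in every comparison. They were chosen with the results of both mouse models in view, because Myc differed in opposite directions in them. The values of the 8 genes within each model are therefore a description. Where a gene is said to be past the study's threshold in a model, this is listed beside the share of all genes and is no evidence for the gene. Between both control groups the 7 genes other than Myc were tested. For Myc this comparison too is a description, since its levels in the control kidneys were part of what chose it.

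RNA from whole kidneys at postnatal day 3 was sequenced, with 3 kidneys in each of 4 groups and 2 litters per group. LIN28B Wt1 kidneys (labelled LIN28OE, strain C57BL/6) carried the alleles Wt1-Cre, TRE-LIN28B and lox-STOP-lox-rtTA. A short doxycycline pulse given late in gestation then switched on human LIN28B in cells in which Wt1-Cre had acted. Wt1 is active in the intermediate mesoderm and in the kidney mesenchyme it forms, stroma as well as nephron progenitors, so the driver is not confined to nephron progenitors. Their littermate controls were labelled WT on C57BL/6, and the labels do not say which of these alleles they carried. The let-7 KO kidneys (strain Mixed (CD1 and C57BL/6)) lacked the let-7a-1, let-7d and let-7f-1 genes constitutively and in every cell, with the other let-7 genes still present. Their WT littermates were of the same mixed strain, and neither group carried the transgene. In bulk kidney RNA, fewer cells of a type and less RNA per cell cannot be told apart.

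Myc and Mycn are basic helix-loop-helix leucine zipper proteins that bind DNA only as dimers with Max, mostly at the E-box CACGTG, and raise transcription of genes for ribosome production, metabolism and cell cycle entry. Mxd1, Mxd4, Mxi1 and Mnt compete for Max and bring Sin3 corepressors to the same sites, while Mga, also a Max partner, is part of a polycomb repressor complex. In the developing kidney Mycn is known for its expression in nephron progenitors and early nephrons, and Myc for its role in progenitor renewal. LIN28 proteins block maturation of let-7 microRNAs, and MYC and MYCN transcripts have been described as let-7 targets in other tissues.

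The microRNAs made by the 3 let-7 genes deleted in the knockout share 1 seed, which is why their sequences are shown first. The paper also measured other let-7a and let-7f precursors, whose genes were not deleted, so these sequences need not be absent from the knockout. Bases 2 to 8 are in capitals, and the sequences come from RefSeq (GRCm38.p6), where all 3 genes lie on the minus strand of chromosome 13.
mmu-let-7a-5p (Mirlet7a-1, chr13:48538239-48538260): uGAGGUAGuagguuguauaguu
mmu-let-7d-5p (Mirlet7d, chr13:48536078-48536099): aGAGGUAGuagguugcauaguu
mmu-let-7f-5p (Mirlet7f-1, chr13:48537889-48537910): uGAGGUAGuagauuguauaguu
The seed pairs with CTACCTC, and a 7-base match that ends opposite the first base reads TACCTCA. Both were searched on the transcript strand of the longest annotated 3′ UTR of each gene (GENCODE M21, GRCm38). At least 1 of them was found in 14.9% of the 20998 protein-coding genes with a 3′ UTR.

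Of the 8 network genes 5 held a match, shown in capitals within the transcript sequence around it. These are the stretches that microRNAs with this seed could pair with by sequence. Mycn held 2 in its 913-base 3′ UTR, and Mxd1 held the 8-base match that joins both motifs.
Mycn, first match (chr12:12936491-12936519, minus strand): aagtactgtaagaaTACCTCAatgtttga
Mycn, second match (chr12:12936120-12936148, minus strand): agagcactttgaaaTACCTCAtgtttatg
Mxd1 (chr6:86650221-86650250, minus strand): tctggaacattgtcCTACCTCAgagataga
Mga (chr2:119965142-119965170, plus strand): tgttaaaaatgtgtTACCTCActtgtggt
Mnt (chr11:74844913-74844941, plus strand): caggcctgcacagaTACCTCAtcatccac
Mxd4 (chr5:34173887-34173907, minus strand): aatacagatttttaTACCTCA
The 3′ UTRs of Myc (466 bases), Max (1299 bases) and Mxi1 (4074 bases) held neither motif. A match is a description of the letters and not a shown site of pairing.

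Total counts per kidney ranged from 39926235 to 61872736. Counts of the 8 genes ranged from 361 for Mxd1 to 9305 for Mycn, so that none was near the limit of detection. As a check of the labels, the summed counts over the 3 deleted let-7 hairpins were 0 in each of the 3 let-7 KO kidneys, where 3 counts, the limit that a count of 0 allows, correspond to 0.0493 to 0.0751 CPM (the count divided by one-millionth of the normalised library total). They were 0, 27 and 37 in the let-7 WT kidneys, so let-7 WT kidney 1 did not differ from the knockouts by this measure. Reads assigned to mouse Lin28b numbered 232, 224 and 71 in the LIN28B Wt1 kidneys and 0, 18 and 33 in their controls. By qRT-PCR the paper found endogenous Lin28a and Lin28b mRNA unchanged in this model. The origin of these reads was not tested, and human LIN28B was not analysed here. Litter-2 LIN28B Wt1 kidney 3 had the lowest Lin28b count of its group. The fat genes Adipoq, Plin1 and Ucp1 stood apart in LIN28B control kidneys 1 and 2: Adipoq was at 22.4 and 25.6 CPM there, at 2.59 in control kidney 3 and at most 3.48 in any other kidney. The adrenal markers Cyp11a1, Cyp11b1 and Cyp17a1 averaged below 1 CPM in every group, with Cyp11a1 at 1.85 CPM in let-7 KO kidney 1. Star, the other adrenal marker, averaged 2.15 CPM in LIN28B control, 3.47 in LIN28B Wt1, 2.11 in let-7 WT and 1.92 in let-7 KO kidneys.

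Myc (chr15:61985391-61990374, plus strand, 3 exons in its longest transcript) was measured at 51.6, 61.2 and 41.8 CPM in the LIN28B controls and at 71.9, 74.2 and 99.3 CPM in LIN28B Wt1 kidneys. All 3 LIN28B Wt1 kidneys were above all 3 controls, with the litter-2 kidney the highest. The log2 difference of levels was 0.67 (SE 0.20, n = 3 per group), a 1.59-fold higher level. In the let-7 WT kidneys Myc was at 62.6, 83.99 and 67.5 CPM, and in the let-7 KO kidneys at 54.0, 36.1 and 40.3 CPM. Here all 3 KO kidneys lay below all 3 WT kidneys, with a log2 difference of -0.73 (SE 0.23, n = 3 per group), a 1.66-fold lower level. The difference between both log2 differences was 1.38 (SE 0.30). Myc was selected on these opposite directions, so none of these values is evidence for them.

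A gene was called in a comparison when edgeR's quasi-likelihood test gave p below 0.01, the threshold the study used. In the LIN28B model 7.33% of the 15793 genes tested were called (3.25% higher and 4.08% lower), and 1.23% had an adjusted p below 0.05. Of the 8 network genes 1, Myc, was past p below 0.01, and none was past the adjusted threshold. In the let-7 model 2.73% of 15500 genes were called (1.1% higher and 1.63% lower), and 0.0194% passed the adjusted threshold. Again 1 of the 8, Myc, was past p below 0.01 and none was past the adjusted threshold. For the difference between the models 1.55% of 16598 genes were called. Nothing is read from these counts, since Myc was chosen on the same contrasts.

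The size of the Myc difference was not the same in both litters of the LIN28B model. Within litter 1 (2 kidneys per group) the log2 difference was 0.38, and within litter 2 (1 kidney per group) it was 1.25. The litter-2 pair also differed in Y-linked genes, which summed to 168 CPM in the control and 0.099 CPM in the LIN28B Wt1 kidney. Its balance of long and short transcripts, described below, was 0.660 in the control and 1.05 in the LIN28B Wt1 kidney. Litter, sex and library quality cannot be told apart in these within-litter values. In the let-7 model both litters gave a similar value, -0.71 and -0.75. Taking the litter as a replicate block, the value was 0.67 for the LIN28B model and -0.73 for the let-7 model, and 0 of the 8 genes were past p below 0.01 in either model. Without LIN28B control kidney 1 or 3 the value was 0.67 and 0.56, neither past p below 0.01. In the let-7 model it was -0.81 to -0.59, not past p below 0.01, without any 1 of the 3 WT kidneys or of KO kidneys 2 and 3, and -0.93 without KO kidney 1. These values describe how far Myc's place past the threshold rests on single kidneys and test nothing. Leaving out both LIN28B control kidneys with high fat genes gave a log2 difference of 0.98 against the 1 remaining control kidney.

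**Figure D1:**
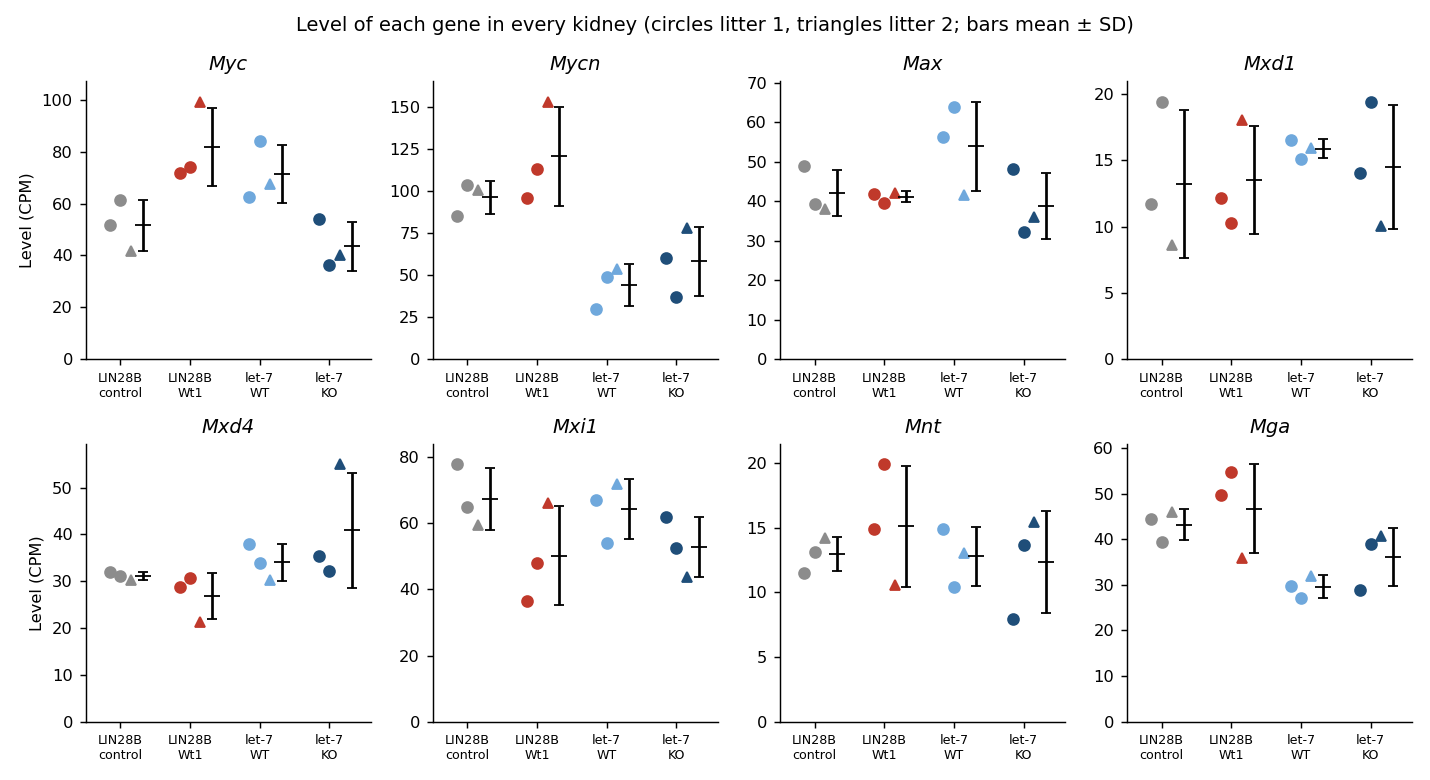
Level (CPM, linear axes from 0) of each of the 8 genes in every kidney of the 4 groups, circles for litter 1 and triangles for litter 2, with the mean ± SD of 3 kidneys beside them. Myc was at 71.9 to 99.3 CPM in LIN28B Wt1 and at 36.1 to 54.0 CPM in let-7 KO kidneys, and Mycn was lower in all 6 kidneys of the mixed strain than in all 6 C57BL/6 kidneys.

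Mycn (chr12:12936093-12941914, minus strand) had values above 0 in both models, with overlapping groups. It was at 85.1, 103 and 101 CPM in the LIN28B controls and at 95.8, 113 and 153 CPM in LIN28B Wt1 kidneys, where the groups overlapped and the litter-2 kidney was again the highest. The log2 difference was 0.33 (SE 0.19). In the let-7 WT kidneys it was at 29.95, 48.6 and 53.3 CPM, and in the let-7 KO kidneys at 59.9, 36.95 and 77.9 CPM. Those groups overlapped as well, with KO kidneys 1 and 3 above all WT kidneys and KO kidney 2 between them. The log2 difference was 0.39 (SE 0.31), of the same sign as in the LIN28B model, and the difference between the models was -0.08 (SE 0.38). Leaving out single kidneys gave 0.11 to 0.47 in the LIN28B model and 0.14 to 0.64 in the let-7 model.

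Max (chr12:76937269-76962201, minus strand), the partner that Myc and Mycn need to bind DNA, had the value nearest 0 of the 8 in the LIN28B model. Its level was 48.9, 39.3 and 38.0 CPM in the controls and 41.9, 39.6 and 42.1 CPM in LIN28B Wt1 kidneys, a log2 difference of -0.03 (SE 0.17). Max was at 56.3, 63.9 and 41.6 CPM in WT and at 48.2, 32.2 and 35.96 CPM in KO kidneys of the let-7 model, a log2 difference of -0.49 (SE 0.25) with 1 KO kidney inside the range of the WT kidneys.

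Among the repressors that compete for Max, Mxi1 (chr19:53310518-53375810, plus strand) was the most abundant per kb of transcript. It was at 77.7, 64.8 and 59.4 CPM in the LIN28B controls and at 36.5, 47.8 and 66.2 CPM in LIN28B Wt1 kidneys. Both litter-1 LIN28B Wt1 kidneys lay below every control and the litter-2 kidney did not, so that the log2 difference of -0.42 (SE 0.23) was -0.76 within litter 1 and 0.16 within litter 2. As for Myc, the litter-2 pair also differed in Y-linked genes and in the balance of long and short transcripts. Mxi1 in the let-7 model was at 66.8, 54.0 and 71.7 CPM in WT and at 61.96, 52.6 and 43.8 CPM in KO kidneys, a log2 difference of -0.30 (SE 0.21). Mxd4 (chr5:34173883-34187720, minus strand) was at 30.3 to 32.1 CPM in the LIN28B controls, the narrowest range of any of the 8 genes, and at 28.7, 30.7 and 21.3 CPM in LIN28B Wt1 kidneys, a log2 difference of -0.21 (SE 0.19). In the let-7 KO kidneys it was at 35.5, 32.3 and 54.98 CPM against 30.2 to 38.0 CPM in WT, a log2 difference of 0.24 (SE 0.25) that came to -0.02 without KO kidney 3.

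Mxd1 (chr6:86647042-86669161, minus strand) and Mnt (chr11:74830920-74845725, plus strand) were low and varied more between kidneys than between groups. Mxd1 ranged from 8.61 to 19.4 CPM over the 12 kidneys, with log2 differences of 0.04 (SE 0.35) in the LIN28B model and -0.15 (SE 0.31) in the let-7 model. Mnt ranged from 7.92 to 19.9 CPM, with log2 differences of 0.22 (SE 0.28) and -0.07 (SE 0.34). Mga (chr2:119897228-119969581, plus strand), with 24 exons in its longest transcript, was at 44.4, 39.3 and 45.9 CPM in the LIN28B controls and at 49.6, 54.6 and 35.9 CPM in LIN28B Wt1 kidneys, a log2 difference of 0.11 (SE 0.19). Its level in the let-7 model was 27.01 to 32.01 CPM in WT and 28.9, 38.9 and 40.7 CPM in KO kidneys, a log2 difference of 0.27 (SE 0.22).

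**Figure D2:**
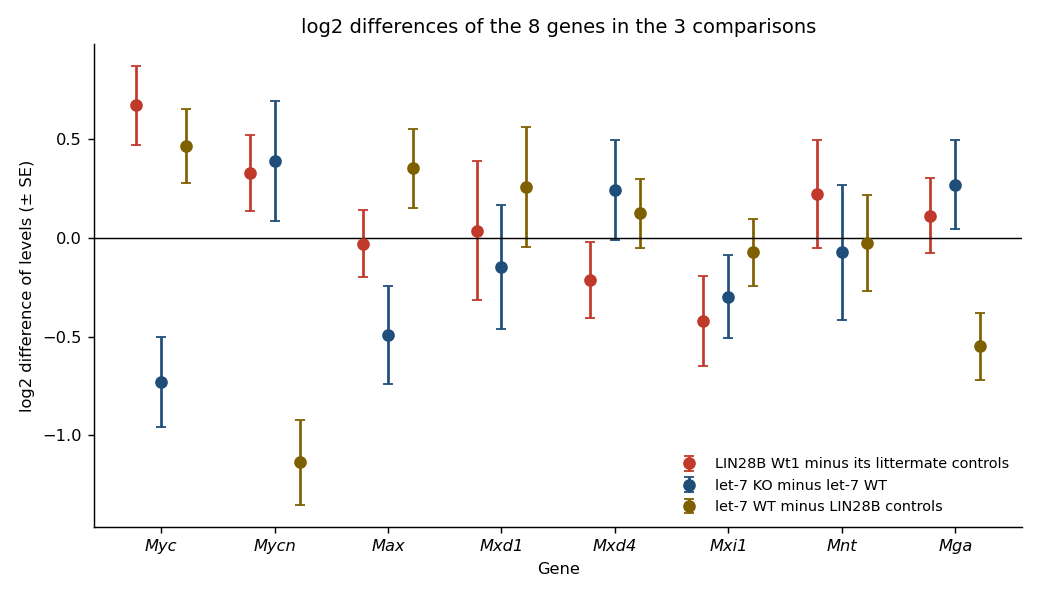
log2 difference of levels (± SE, 3 kidneys per group) of the 8 genes in the LIN28B model, the let-7 model and between both control groups. Myc stands at 0.67 and -0.73 in the models, and Mycn at -1.14 between the control groups lies farther from 0 than any other value plotted.

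The control groups were compared next, for Myc as a description only. Mycn was lower in let-7 WT than in LIN28B control kidneys, at 29.95, 48.6 and 53.3 CPM against 85.1, 103 and 101 CPM, with no overlap. The log2 difference was -1.14 (SE 0.21, 95% interval -1.62 to -0.66, edgeR quasi-likelihood adjusted p = 0.0404), a 2.20-fold lower level. Mga was also lower in all 3 let-7 WT kidneys, by a log2 difference of -0.55 (SE 0.17, 95% interval -0.93 to -0.17, edgeR adjusted p = 0.204), a 1.46-fold lower level. These 2 of the 8 genes were called, where 4.79% of 15850 genes were (2.82% higher and 1.97% lower). By the adjusted threshold 1 of the 8, Mycn, was called, against 1.19% of all genes. Strain, breeding, litter and library number differ between these groups, as may doxycycline exposure, which the labels do not give. Y-linked genes summed to 0.067, 0.16 and 168 CPM in the LIN28B controls and to 0.017, 141 and 216 CPM in let-7 WT kidneys. These differences between the groups cannot be told apart.

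Myc was higher in all 3 let-7 WT kidneys than in all 3 LIN28B controls, with a log2 difference of 0.47 (SE 0.19). Low Myc in the LIN28B controls and high Myc in let-7 WT kidneys are part of the opposite directions it was chosen for, so no test is given. The remaining 5 genes overlapped between the control groups. Their log2 differences were 0.35 for Max (95% interval -0.09 to 0.80), 0.26 for Mxd1 (-0.42 to 0.94), 0.13 for Mxd4 (-0.27 to 0.52), -0.07 for Mxi1 (-0.45 to 0.31) and -0.02 for Mnt (-0.57 to 0.52). The signs of the last 2 turned in some alternatives. These kidneys are also the controls of the model comparisons, so a value here and a value there share samples.

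Mycn was called between the control groups under all 14 alternatives, and its adjusted p was below 0.05 in 8 of them (edgeR or DESeq2 adjusted p from 5.30e-05 to 0.744). The adjusted call was lost with 1 fit of all kidneys (-1.13), without LIN28B control kidney 1, 2 or 3, at log2 differences of -1.22, -1.08 and -1.10, without let-7 WT kidney 1, at -0.92, and without both kidneys rich in fat genes. Mga was called in 5 of the 14 (adjusted p from 0.0689 to 0.959 in edgeR or DESeq2) and was not called without any 1 of the 3 LIN28B controls (-0.53, -0.61 and -0.50) or without let-7 WT kidneys 1 or 2 (-0.55 and -0.48). With both LIN28B control kidneys that had high fat genes left out, an alternative added after seeing the data, the Mycn difference was -1.19 (edgeR adjusted p = 0.744) and that of Mga -0.63 (not called). The summed level of the 9 nephron progenitor markers was 233 to 274 CPM in the LIN28B controls and 178 to 248 CPM in let-7 WT kidneys. Itga8 alone averaged 124 and 109 CPM of these sums. Of the 9 log2 differences 1 was above 0, and their median was -0.40. Of these markers 1, Eya1, was called lower, with a log2 difference of -2.89 (SE 0.66), and 5 of 6 proximal tubule markers were called higher. Over all genes 1.97% were called lower and 2.82% higher. The part of these cell type markers and of the fat genes in the Mycn difference was not tested beyond the values given.

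Levels can be compared between genes only per length, here as CPM per kb of the longest annotated transcript. In the LIN28B controls Mycn led with 36.04 ± 3.7 (SD, n = 3), above Myc at 22.04 ± 4.2 and Max at 21.7 ± 3.0, and the ranges of the last 2 overlapped. Mxi1 followed at 13.4 ± 1.9 and Mxd4 at 6.73 ± 0.19, each apart from its neighbours by this length. By the length of all exons Max averaged 11.7 and Mxi1 9.86 in these kidneys, so the gap between Max and Mxi1 depends on the length used. Mga at 3.10 ± 0.25, Mxd1 at 2.84 ± 1.19 and Mnt at 2.82 ± 0.29 could not be ordered. The longest Mxd4 transcript in the annotation is a single exon of 4627 bases that keeps introns, so the value per kb of Mxd4 depends on that choice.

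In LIN28B Wt1 kidneys Mycn (45.1 ± 11.02 CPM per kb) and Myc (34.99 ± 6.5) overlapped, and both were above Max (21.2 ± 0.7). In let-7 WT kidneys the order at the top was Myc (30.5 ± 4.8), Max (27.8 ± 5.8) and Mycn (16.4 ± 4.6). By the longest transcript Mycn was below Max in every let-7 WT kidney and overlapped Mxi1. By the length of all exons Max averaged 14.986 and Mycn 13.341 in let-7 WT kidneys. The order of Mycn and Max in single kidneys therefore depends on the length used. In let-7 KO kidneys Mycn (21.8 ± 7.7), Max (20.0 ± 4.3) and Myc (18.6 ± 4.0) all overlapped. By the length of all exons Mycn averaged 17.7, Myc 16.0 and Max 10.8 in these kidneys. Below them the order Mxi1, Mxd4 and then the 3 low genes was the same in all 4 groups, although Mxi1 and Mxd4 overlapped in let-7 KO kidneys.

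The ratio of Mycn to Myc per kb put these levels on 1 scale in each kidney. It was 1.44, 1.48 and 2.11 in the LIN28B controls and 1.16, 1.33 and 1.35 in LIN28B Wt1 kidneys, so all LIN28B Wt1 kidneys were below all controls while Mycn remained the higher of the pair in every kidney. In let-7 WT kidneys the ratio was 0.418, 0.506 and 0.690, and in let-7 KO kidneys 0.970, 0.895 and 1.69, with no overlap. The mean ratio was 0.538 ± 0.139 in let-7 WT and 1.68 ± 0.37 in LIN28B control kidneys. The ratio rests on Myc in every comparison and is a description.

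**Figure D3:**
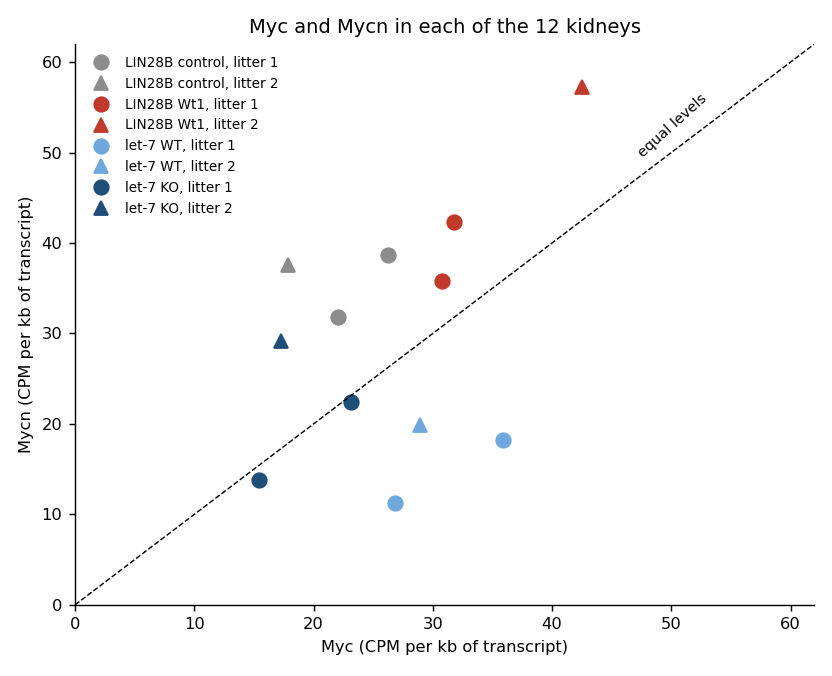
Mycn against Myc in each of the 12 kidneys, both as CPM per kb of transcript, with the dashed line at equal levels, colours for groups and circles or triangles for litter 1 or 2. All 6 C57BL/6 kidneys lie above the line, all 3 let-7 WT kidneys lie below it, and the let-7 KO kidneys have ratios of 0.895, 0.970 and 1.69, so that only the litter-2 kidney lies above it.

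Myc and Mycn together made up 53.5 ± 3.9% of the summed level per kb of the 8 genes in the LIN28B controls and 62.9 ± 4.0% in LIN28B Wt1 kidneys, without overlap (highest control 56.6%, lowest LIN28B Wt1 kidney 59.98%). The share of the Max-binding repressors Mxd1, Mxd4, Mxi1 and Mnt was 23.7 ± 1.1% and 17.4 ± 1.3% in the same groups, also without overlap. The share of Myc and Mycn was 45.4 ± 5.5% in WT and 45.4 ± 4.9% in KO kidneys of the let-7 model, and that of the repressors 25.7 ± 4.2% and 28.9 ± 4.2%, and both overlapped. All 3 let-7 WT kidneys, at 39.0% to 49.0%, were below all 3 LIN28B controls, at 49.2% to 56.6%, by a narrow gap. These shares contain Myc, rest on the longest transcript of each gene and are a description as well.

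A further 5 proteins extend the network: Mycl and Mxd3, which bind Max, and the Mlx, Mlxip and Mlxipl branch, whose dimers respond to glucose metabolites. None of the 5 was called in any of the 3 comparisons. Mycl ranged from 5.06 to 20.5 CPM over the 12 kidneys, and its log2 differences were 0.43 (SE 0.40) in the LIN28B model and 0.46 (SE 0.47) in the let-7 model. Mxd3, a repressor found in dividing cells, gave 0.45 (SE 0.24) and 0.29 (SE 0.29). Mlxip was lower in all 3 let-7 KO kidneys than in the WT kidneys, with a log2 difference of -0.42 (SE 0.25) that did not pass the threshold.

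The proteins that the network works through gave few calls. Of 20 coactivators and chromatin partners of Myc, 1 rose in the LIN28B model, Ruvbl2 (0.57, SE 0.15), an ATPase of chromatin remodelling complexes, and none was called in the let-7 model. Of 22 kinases, phosphatases, ubiquitin ligases and other regulators of Myc protein stability, Set (0.47, SE 0.12), an inhibitor of protein phosphatase 2A, rose in the LIN28B model, and the deubiquitinase Usp22 (-0.73, SE 0.16) fell in the let-7 model. Of 18 subunits of the Sin3 and NCoR corepressors, Arid4b (0.53, SE 0.15) rose in the LIN28B model and the scaffold Sin3b (0.60, SE 0.18) in the let-7 model. Of 13 partners of Mga in the polycomb complex, Cbx3 (HP1 gamma) rose in both, by 0.53 (SE 0.14) and 0.87 (SE 0.26). Each count is 1 gene in 13 to 22, beside 7.33% and 2.73% of all genes. The medians of the 4 lists were 0.09 to 0.25 in the LIN28B model and -0.20 to 0.10 in the let-7 model.

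Between the control groups Cbx3 was 139 CPM on average in the LIN28B controls and 81.7 CPM in let-7 WT kidneys, a log2 difference of -0.77 (SE 0.14, edgeR adjusted p = 0.0348). The kinase Pim1, which stabilises Myc protein, was higher there (1.48, edgeR adjusted p = 0.0278). None of the coactivators or corepressors was called between the control groups. Cbx3 and Npm1 have near-identical processed copies in the genome, so their counts are uncertain.

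Genes described as activated by Myc, mostly factors of ribosome production, the nucleolus, polyamine synthesis and protein folding, were higher in LIN28B Wt1 kidneys. This list, like the others, was chosen with earlier results of these data known, so its values are a description. Of its 65 genes, 25 rose and none fell, where 3.25% of all genes were called higher and 4.08% lower. The median log2 difference was 0.45, against -0.02 over all genes tested, and 61 of the 65 values were above 0. Of these, 5 passed the adjusted threshold in edgeR's test: Npm1, Ccnd2, Nop58, Gnl3 and Nolc1. Npm1 (nucleophosmin, a ribosome assembly factor of the nucleolus) was at 416, 435 and 524 CPM in the controls and at 824, 920.0 and 714 CPM in LIN28B Wt1 kidneys, a log2 difference of 0.84 (SE 0.14, adjusted p = 0.0253). Ccnd2 (cyclin D2, which drives entry into the cell cycle) was at 284, 289 and 334 CPM against 563, 552 and 452 CPM, a log2 difference of 0.79 (SE 0.13, adjusted p = 0.0264). Nop58, a core protein of the particles that modify ribosomal RNA, was at 126, 134 and 143 CPM against 222, 226 and 206 CPM, a log2 difference of 0.70 (SE 0.12, adjusted p = 0.0339).

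In all 3 of these genes every LIN28B Wt1 kidney was above every control. The largest log2 difference of the 65 genes was that of Rrp12, a ribosome export factor, at 1.07 (SE 0.23). The 4 genes with values below 0 were Supv3l1, Slc29a2, Slc19a1 and Tfb2m, at -0.04 to -0.29, none of them called. Without LIN28B control kidney 1 or 2 the count of genes that rose was 11 in each case, without LIN28B Wt1 kidney 1 or 2 it was 14 and 16, and without LIN28B Wt1 kidney 3 it was 35. Against the 1 control kidney with low fat genes, 2 of the 65 were called (148 of 16850 genes over all), while 58 values were above 0 and their median was 0.40. Markers of dividing cells and of nephron progenitors moved with this list. All 20 genes of S phase and mitosis had values above 0 (median 0.34), of which 5 rose: Top2a, Birc5, Mcm7, Pcna and Tyms. Of 9 nephron progenitor markers 7 rose, led by Six2 (3.35, SE 0.24) and Cited1 (3.33, SE 0.27), and their summed level was 497 to 652 CPM against 233 to 274 CPM. Their part in the target genes' difference was not tested.

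The balance of long and short transcripts, a sign of RNA or library quality, also differed between these kidneys. It was taken as the mean log2 CPM of tested genes in the top quartile of transcript length minus that in the bottom quartile, which was 1.04, 0.907 and 0.660 in the LIN28B controls and 0.594, 0.620 and 1.05 in LIN28B Wt1 kidneys. Both litter-1 LIN28B Wt1 kidneys were thus below every control, and kidney 3, without which 35 genes of the list rose, was above them. In the let-7 model it was 0.823, 0.512 and 1.03 in WT and 0.727, 0.401 and 0.291 in KO kidneys, with 2 KO kidneys below every WT kidney. With this measure as a covariate 33 of the 65 genes were called in the LIN28B model (1785 genes over all) and 0 of 65 in the let-7 model (284 over all).

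The same list gave few calls in the let-7 model. Of the 65 genes 3 rose (Fbl 0.88, Cbx3 0.87 and Hspe1 0.60) and 1 fell (Ipo4 -0.68), against 1.1% of all genes called higher and 1.63% lower. The median was 0.19, above the -0.02 of all genes tested, with 43 values above 0, and none of the 4 calls was left with the transcript-length covariate. The summed level of the list was 10123 to 11349 CPM in let-7 KO and 8762 to 9034 CPM in let-7 WT kidneys, and 11319 to 13186 CPM in LIN28B Wt1 and 8420 to 9516 CPM in their controls. For the difference between the models, 4 of the 65 genes (Gnl3, Ipo4, Mybbp1a and Odc1) were called, all higher in the LIN28B model, against 1.55% of all genes in either direction, and none passed the adjusted threshold. In the comparison of control groups 1 rose (Slc19a1 0.65) and 2 fell (Cbx3 -0.77 and Plk4 -0.73), with a median of 0.01.

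**Figure D4:**
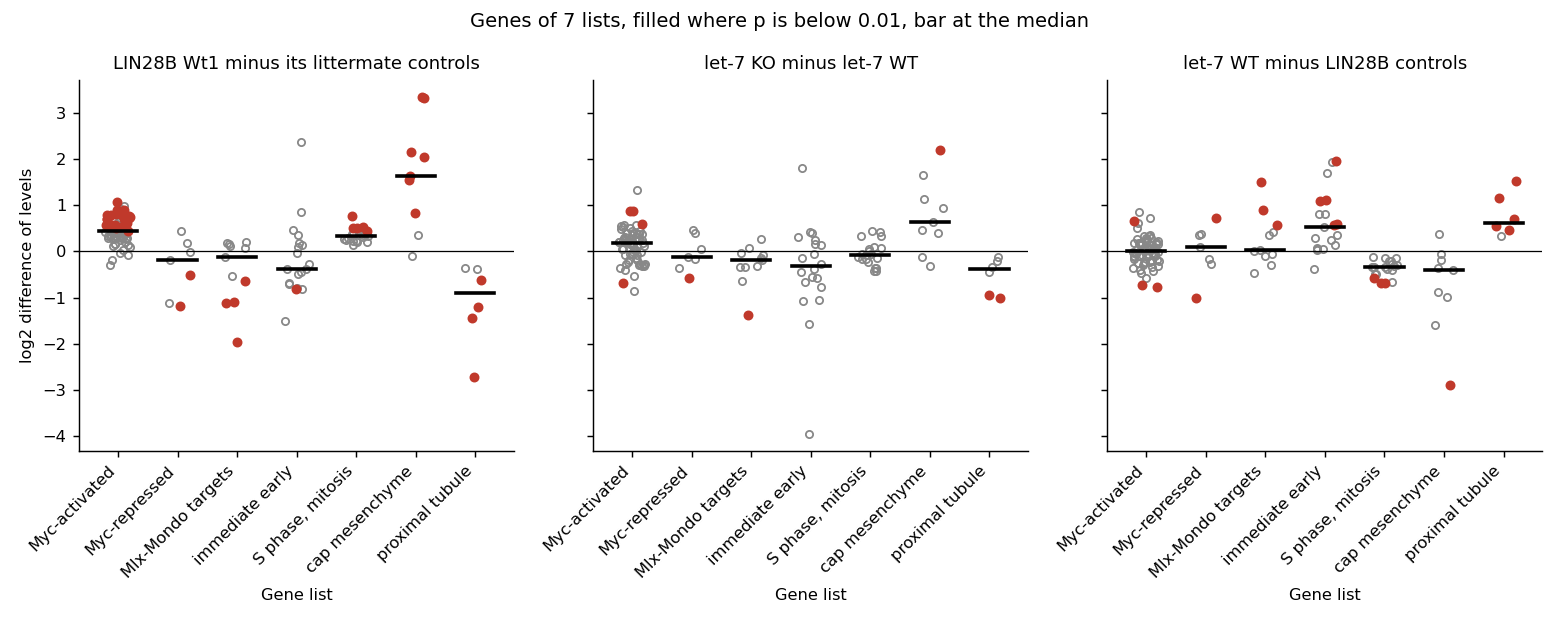
log2 difference of levels of every tested gene of 7 lists in the 3 comparisons, filled red where edgeR's p was below 0.01 and open otherwise, with a bar at each list's median. The 65 Myc-activated genes have their median at 0.45 in the LIN28B model, at 0.19 in the let-7 model and at 0.01 between the control groups.

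Promoters bear on these genes because the E-box CACGTG is the preferred site of Myc-Max and Mxd-Max dimers. The motif, its own reverse complement, was searched from 250 bases before to 50 bases after each RefSeq start site (GRCm38.p6). It was present in 7.15% of 32851 promoters and in at least 1 promoter of 8.09% of 27025 genes. Of the 59 Myc-activated genes with a promoter in the table, 19 (32.2%) held it. Of 7 network genes with an entry, 3 did (Max, Mxd4 and Mnt), each printed with the motif in capitals.
Max (chr12:76962234-76962263, minus strand, motif starting 3 bases before the start site): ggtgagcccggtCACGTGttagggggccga
Mxd4 (chr5:34187912-34187941, minus strand, 219 bases before): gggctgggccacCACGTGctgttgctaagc
Mnt (chr11:74830789-74830818, plus strand, 123 bases before): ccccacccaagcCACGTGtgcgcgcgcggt
The promoters of Mycn, Mxd1, Mxi1 and Mga held no CACGTG in this window, and Myc was the gene without an entry. Cdk4, a cyclin-dependent kinase that binds cyclin D2, held the motif at 4 places, the most of any gene of the list.
Cdk4 (chr10:127063351-127063380, plus strand, 172 bases before): atggcagccagtCACGTGccacacagcgta
Cdk4 (chr10:127063405-127063434, plus strand, 118 bases before): aagtcaaggggtCACGTGggatagcaacag
Cdk4 (chr10:127063425-127063454, plus strand, 98 bases before): atagcaacaggtCACGTGgccgtcagggcc
Cdk4 (chr10:127063512-127063541, plus strand, 11 bases before): aagggtgaagatCACGTGtccagaacgtcc
Cdk4 rose in LIN28B Wt1 kidneys (log2 difference 0.51, SE 0.11) and was not called in the let-7 model (0.24, SE 0.15).

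The calls within the list were then split by the motif, with no test of the difference. In the LIN28B model 4 of the 19 genes with CACGTG rose and 16 of the 40 without it, with medians of 0.38 and 0.50. The 6 genes with no promoter entry held 5 more of the 25 rises, with a median of 0.81. Among all tested genes with a promoter entry 4.78% of those with the motif and 3.22% of those without it were called higher, and their medians were 0.02 and -0.02. None of the 19 rose in the let-7 model and 1 fell, with a median of 0.03, while 2 of the 40 without the motif rose, with a median of 0.21. Over all tested genes 0.856% with the motif and 1.13% without it were called higher there.

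Genes described as repressed by Myc include cell cycle inhibitors and differentiation genes. Of 7, Ndrg1 and Ndrg2 fell in the LIN28B model, by log2 differences of -1.19 (SE 0.17, edgeR adjusted p = 0.0151) and -0.51 (SE 0.16), and the median was -0.18. Ndrg1, a stress-responsive gene of differentiated epithelium, was at 306, 292 and 291 CPM in the controls and at 158, 99.98 and 130 CPM in LIN28B Wt1 kidneys. It fell in the let-7 model too (-0.58, SE 0.17), at 441, 335 and 373 CPM in WT and at 240.0, 251 and 289 CPM in KO kidneys. Of all genes, 4.08% were called lower in the LIN28B model and 1.63% in the let-7 model. The cell cycle inhibitors Cdkn1a, Cdkn1b and Cdkn2b were called in neither model. Cdkn1a rose (0.72, SE 0.17) and the growth arrest gene Gas1 fell (-1.02, SE 0.17) between the control groups.

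Glucose-responsive genes described as targets of the Mlx branch include enzymes of glucose, fructose and lipid metabolism. Of 11, 4 fell and none rose in the LIN28B model, where 4.08% of all genes were called lower and 3.25% higher, and the median was -0.13. G6pc, the last enzyme of gluconeogenesis, was at 132, 136 and 166 CPM in the controls and at 24.0, 35.7 and 50.8 CPM in LIN28B Wt1 kidneys (log2 difference -1.97, SE 0.26, edgeR adjusted p = 0.00968). Gpd1 (-1.11, SE 0.16), Khk (-1.09, SE 0.25) and Txnip (-0.64, SE 0.18) fell with it. Of the same 11 genes 1 fell in the let-7 model, G6pc (-1.37, SE 0.19), where 1.63% of all genes did. The effects on Gpd1 and Khk were lower in the LIN28B than in the let-7 model by 1.06 (SE 0.24) and 1.39 (SE 0.41) on the log2 scale, both called and neither past the adjusted threshold. G6pc and Khk are expressed in the proximal tubule, and 4 of 6 proximal tubule markers fell in the LIN28B model, their summed level being 835 to 1008 CPM against 1772 to 1879 CPM. In let-7 KO kidneys 2 of these 6 markers, Slc5a2 and Slc5a12, fell. Their part in the G6pc and Khk differences was not tested.

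Myc is itself an immediate early gene in many cells. Of the other immediate early genes, 1 of 19 tested fell in the LIN28B model, Zfp36 (-0.81, SE 0.23), beside 4.08% of all genes called lower. None of 20 was called in the let-7 model, beside 2.73% of all genes. The medians were -0.38 in the LIN28B and -0.32 in the let-7 model. Between the control groups, where Myc stood at 0.47, 5 of 19 rose (Cyr61, Ier3, Atf3, Junb and Dusp1) and none fell, against 2.82% of all genes called higher, and the median was 0.52. Cyr61 (1.10, SE 0.19) and Ier3 (1.11, SE 0.20) passed the adjusted threshold. In the same comparison 3 genes of S phase and mitosis (Mcm3, Bub1b and Top2a) fell, beside 1.97% of all genes, and all 20 had values below 0.

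The other markers of kidney cell types place these values in the tissue. Among 9 ureteric tip and collecting duct markers Ret (1.47) and Etv4 (1.06) rose and Calb1 (-0.73) fell in the LIN28B model. Calb1 fell in the let-7 model too (-0.88). Of 4 loop and distal tubule markers 3 fell in the LIN28B model, and so did 4 of 5 endothelial markers. Single markers fell among 6 early nephron (Pax8), 6 stromal (Pdgfrb) and 5 immune genes (Csf1r). Over all genes 3.25% were called higher and 4.08% lower in this model. None of the 5 podocyte markers was called in either model. Of 5 red cell markers only Alas2 passed the filter, and it was called in neither. The 4 haemoglobin genes on that list had counts of 0 in every kidney, so red cell content was not assessed by them. In let-7 KO kidneys 1 of 9 nephron progenitor markers rose, Gdnf (2.20), where 1.1% of all genes were called higher and 1.63% lower. Of the 9 values 7 were above 0, with a median of 0.63. Their summed level was 216 to 233 CPM against 178 to 248 CPM in let-7 WT, with Itga8 alone at 88.3 and 109 CPM on average. Between the control groups 2 of 5 podocyte and 2 of 4 loop and distal tubule markers rose. Of ureteric tip and collecting duct markers 1 of 9 fell, and of early nephron markers 1 of 6. Over all genes 2.82% were called higher and 1.97% lower there. The part of these cell types in the levels of Myc and Mycn was not tested.

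The genes whose levels followed Myc most closely over the 12 kidneys, among 15135 tested in both models, were Mir467c (Pearson r of log2 CPM 0.94, Spearman rho 0.97), Robo2 (0.93 and 0.92), Pcdhb9, Fzd9 and Mapk6 (r from 0.88 to 0.89). Leaving out the 2 kidneys with Myc farthest from its median gave r from 0.77 to 0.92. Robo2 encodes a receptor for Slit proteins that limits ureteric budding, Fzd9 a Wnt receptor, and Mapk6 an atypical MAP kinase. Mir467c is a hairpin whose reads cannot be told from those of the transcript around it, and Pcdhb9 has close relatives in a gene cluster, so both counts are uncertain. The genes closest to Mycn were Megf6 (r 0.96, rho 0.97), Uncx (0.95 and 0.88), N4bp2, Aim2 and Eya1 (r 0.93 each), with r from 0.88 to 0.98 after leaving out 2 kidneys. Eya1 is a transcription cofactor that nephron progenitors require, and Uncx a homeobox gene. These are the highest of 15135 values over kidneys that differ in strain and model, so they are a description with no test.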

How the data were processed

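RNA came from single whole kidneys (Trizol, then DNase). Libraries were prepared with a SMARTer Ultra Low kit, which does not mark strand, and read on an Illumina HiSeq. The authors deposited, for every kidney, the raw read count of each gene symbol. Their processing notes name cutadapt, TopHat2 2.0.9, Bowtie2, SAMtools 0.1.19, HTSeq and mm10; annotation and strand setting are not given in the sources used here.

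The 6 kidneys of a comparison were fitted without the other groups. Genes were filtered with filterByExpr (minimum count 10, minimum total count 15), scaled by TMM and tested by quasi-likelihood F in edgeR 4.0.16 under R 4.3.3. Adjusted p-values are Benjamini-Hochberg values over all genes tested. The standard error was the log2 difference over the square root of F. Differences between models came from 1 fit of all 12 kidneys. CPM use effective library sizes. Kidneys are separate animals only as far as the labels say, so p-values measure the spread between these libraries.

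The members and gene lists were chosen with earlier results of these data known. From each list, up to 3 genes with the smallest p among those called in either model were named; where a count was 5 or fewer, and for single genes such as Cdk4 and Rrp12, further names were chosen after their values were seen. List symbols absent from the files were left out.

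The labels give litter numbers that mark a shared litter. The deviations of kidneys of the same litter correlated with a mean r of -0.04 in the LIN28B model and 0.00 in the let-7 model (other litters 0.05 and 0.00). Deviations were taken from the mean of each group, which ties the same-litter and other-litter values to each other. They are therefore no independent check of the litter labels.

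Alternatives were DESeq2 1.42.0, upper-quartile scaling, no filter, a stricter filter that asked for 1 CPM in each kidney, 1 fit of all kidneys, covariates for Y-linked genes and for transcript-length bias, the litter block, each kidney left out, and adjusted p below 0.05. Leaving out both fat-rich control kidneys was added after seeing the data. The scripts were tested on simulated counts.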

Additional observations from a re-analysis of the deposited data

Results flagged for a closer look

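Myc was marked because every LIN28B Wt1 kidney lay above its controls while every let-7 KO kidney lay below its WT littermates. Its 2 log2 differences of 0.67 and -0.73 are 1.38 (SE 0.30) apart. The difference was not tested, since Myc was chosen for it.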

How the results depend on the processing

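The log2 difference of Myc kept its sign under every alternative run in both models, from 0.50 to 0.98 (LIN28B) and from -0.93 to -0.59 (let-7), and the distance between the models was 1.22 to 1.57 with single kidneys left out. With litter as a replicate block 0 of the 8 genes were called in either model, and 20 of the 65 Myc-activated genes rose in the LIN28B model. The numbers of the control groups mark different litters, so no block could be fitted there.

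Leaving out 1 kidney at a time gave 515 to 2509 genes called in the LIN28B model, 162 to 1296 in the let-7 model and 454 to 1130 between the control groups. The 8 network genes then held 0 to 1, 0 to 1 and 1 to 2 calls, and the Myc-activated list 11 to 35 in the LIN28B model. At an adjusted p below 0.05 there were 194, 3 and 188 genes, with 0, 0 and 1 network genes and 5 Myc-activated genes. Without both fat-rich control kidneys 148 genes were called in the LIN28B model and 203 between the control groups, with 0 and 1 network genes and 2 Myc-activated genes, a fit with 1 control kidney that is assumed to vary like the others.

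The transcript-length covariate gave 1785 genes in the LIN28B model and left 0 network genes in the let-7 model, as did the Y-linked covariate. DESeq2 called 844 genes in the let-7 model and 1141 between the control groups, and 1 fit of all kidneys 687 in the let-7 model. Between the control groups 1 network gene was called with no filter, with 1 fit of all kidneys and with the Y-linked covariate. Mxi1 there ran from -0.16 to 0.046 and Mnt from -0.15 to 0.11 with single kidneys left out, turning sign, and Mxi1 was 0.11 without both fat-rich kidneys. The cause was not tested for any of these. With 3 kidneys a group, small differences of the low genes Mxd1 and Mnt were not detectable.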
